A study of Schizosaccharomyces pombe with 9 samples.

Results

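The data compared here are from fission yeast (Schizosaccharomyces pombe) cells under nitrogen starvation: RNA-seq of a strain labelled *tup11∆/tup12∆/php5∆*, set against a strain labelled *tup11∆/tup12∆*, over every feature of the deposited table in both directions. All 5323 features were compared, with 1 library on each side, out of 9 libraries in the series (3 strains, each in 3 media). By their labels the first strain has deletions of the corepressor genes *tup11* and *tup12* and in addition of *php5*, the second has deletions of *tup11* and *tup12*, and a library labelled WT in the same medium has none of these. All were kept for 2 h in the nitrogen starvation medium MM-N, which holds 1% glucose and, per the methods, those amino acids that the strains require, so supplements may differ between strains. The same pairs of strains after 2 h with 0.1% glucose and 3% glycerol (glucose starvation) or with 6% glucose (glucose rich) serve as a comparison. Per the methods both of those media hold yeast extract, which is not among the listed contents of MM-N. Between media, the starvation and the base of the medium therefore cannot be told apart. The strain table of the study holds several strains for a genotype, which differ in mating type and in the *ade6*, *leu1* and *ura4* markers, and the sources used here do not state which of them was sequenced. The *tup11∆/tup12∆/php5∆* cells are spores from a cross, so that strain background and the loss of *php5* cannot be told apart. For brevity the 2 mutant libraries are called triple-labelled and double-labelled from here on.

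Php5 is a histone-fold subunit of the CCAAT-binding factor, the fission yeast form of NF-Y, which binds the CCAAT box of promoters together with Php2 and Php3. In yeasts this complex is best known as an activator of respiratory genes, and in fission yeast the additional subunit Php4 turns it into a repressor of iron-using genes when iron is scarce. Tup11 and Tup12 are corepressors without DNA-binding activity that transcription factors recruit. Nitrogen starvation stops growth, starts the recycling of nitrogen compounds and prepares the cells for mating. The comparison asks what the loss of *php5* changes in cells labelled as lacking both corepressors, beyond the genes induced by glucose starvation for which the study was designed.

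Expression is given as TPM, the share of transcripts on a fixed scale after correction for coding length, so that levels can be compared between genes. Between libraries, such values compare shares of a fixed sum and not amounts of RNA. The triple-labelled library held 39108623 reads and the double-labelled library 36652045 reads, against 48845411 reads in the WT-labelled library. A fold difference is the ratio of TPM between the triple-labelled and the double-labelled library, and the range after it is its exact Clopper-Pearson 95% interval, which covers counting error only. With 1 culture per condition no difference between cultures can be tested, no p-value is given, and every statement compares these libraries. In such bulk samples fewer cells with an RNA and less RNA per cell cannot be told apart.

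The deleted genes were looked at first. *tup11* had 0.332 TPM in the triple-labelled library, against 0.223 TPM in the double-labelled and 67.4 TPM in the WT-labelled library. *php5* had 30.2 TPM in the triple-labelled, 124 TPM in the double-labelled and 126 TPM in the WT-labelled library, which is 4.12-fold lower (3.89 to 4.35). The strain table names a marker at *php5* and does not say how much of the gene was removed. All coding bases of *php5* lie within other annotated transcripts, and the libraries were not strand-specific. Where the remaining reads come from therefore cannot be told. The strain table lists *tup12* with the *ura4* marker in the same way, and *tup12* had 55.7 TPM in the triple-labelled library, against 72.7 TPM in the double-labelled and 157 TPM in the WT-labelled library. These *tup12* values are not those of a gene without RNA. Whether a part of the marked gene remains in both mutant strains cannot be told, so the names triple-labelled and double-labelled refer to labels throughout. The marker gene *ura4* had 131 TPM in the triple-labelled, 101 TPM in the double-labelled and 0 TPM in the WT-labelled library. The partner subunits *php2* and *php3* differed little, with 113 TPM in the triple-labelled and 98.2 TPM in the double-labelled library for *php2* and 225 TPM in the triple-labelled and 226 TPM in the double-labelled library for *php3*. The repressive subunit *php4* was 3.84-fold higher (3.62 to 4.08), with 149.8 TPM in the triple-labelled library, against 39.0 TPM in the double-labelled and 84.7 TPM in the WT-labelled library. All coding bases of *php4* likewise lie within other annotated transcripts.

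A filter kept the 4810 features that averaged 10 TPM or more across the 9 libraries. Of these 155 (3.22%) were lower by more than 2-fold in the triple-labelled library than in the double-labelled library, and 142 (2.95%) were higher by more than 2-fold. It left out 513 features. Differences past 4-fold were fewer, with 37 features lower and 28 higher, and past 8-fold 10 were lower and 7 higher. The median log2 ratio (of TPM + 1) of all features was -0.11, and values of single genes are to be read against that shift. Scaled by median-of-ratios size factors instead, the median was 0.02, and 114 features were lower and 203 higher past 2-fold. The nearest feature inside the lower limit was *fra1* with a ratio of 0.49995, and the nearest outside it was SPBC947.06c with 0.50056. On the other side *rps001* had a ratio of 2.0036 and *lcf2* of 1.998. A set of 17 genes, *fbp1* among them, was defined in the study by criteria that include this same ratio, so all of them are in the lower group by construction and 138 lower features lie outside it. Their median log2 ratio was -2.11. Among them *fbp1*, which encodes the gluconeogenic fructose-1,6-bisphosphatase, had 85.3 TPM in the triple-labelled, 1612 TPM in the double-labelled and 20.97 TPM in the WT-labelled library. The gluconate transporter gene *ght3* had 102 TPM in the triple-labelled and 726 TPM in the double-labelled library, and *mug14*, whose product is annotated as adducin, had 597 TPM in the triple-labelled and 5879 TPM in the double-labelled library. The scatter of both libraries shows the groups described in what follows.

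**Figure D1:**
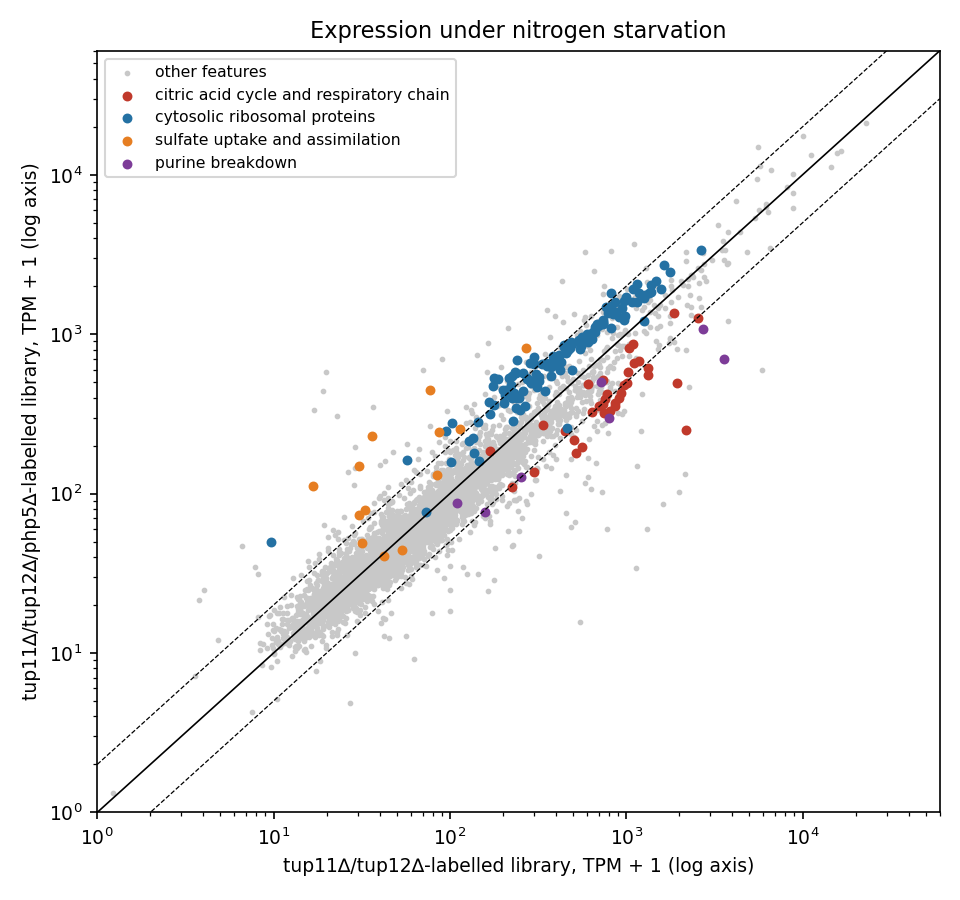
Expression under nitrogen starvation in the triple-labelled library (vertical axis, TPM + 1) against the double-labelled library (horizontal axis, TPM + 1), both on log axes, for 4810 features. The solid line marks equal values and the dashed lines 2-fold differences. Genes of the respiratory chain and nearly all of the citric acid cycle (red) and genes of purine breakdown (purple) lie below the solid line, and nearly all ribosomal protein genes (blue) lie above it.

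Outside the 17 genes, the lowest ratio belonged to the hexose transporter gene *ght7*, with 14.7 TPM in the triple-labelled library, against 549.6 TPM in the double-labelled and 21.4 TPM in the WT-labelled library, which is 37.5-fold lower (35.2 to 40.0). *isp3*, a gene known for its induction in sexual development, had 33.0 TPM in the triple-labelled, 1136 TPM in the double-labelled and 16.6 TPM in the WT-labelled library (34.4-fold lower, 32.0 to 37.1). For both genes the triple-labelled and WT-labelled values were low, and the double-labelled value stood far above them. *dgc1*, annotated as D-glutamate cyclase, showed another order, with 101 TPM in the triple-labelled library, against 2004 TPM in the double-labelled and 5310.2 TPM in the WT-labelled library (19.8-fold lower, 19.2 to 20.5). *pex7*, which encodes the receptor that brings PTS2 proteins into peroxisomes, had 132 TPM in the triple-labelled, 2143 TPM in the double-labelled and 1085 TPM in the WT-labelled library (16.2-fold lower, 15.8 to 16.7). *cyc1*, which encodes cytochrome c, had 250.4 TPM in the triple-labelled library, against 2176 TPM in the double-labelled and 1315 TPM in the WT-labelled library (8.69-fold lower, 8.39 to 9.002). In *dgc1*, *pex7* and *cyc1* the triple-labelled library was the lowest of the 3 and the WT-labelled library was also high.

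*rgs1*, a regulator of G-protein signalling that dampens the pheromone response, had 39.9 TPM in the triple-labelled, 320.1 TPM in the double-labelled and 15.5 TPM in the WT-labelled library (8.03-fold lower, 7.69 to 8.38). *xan1*, the xanthine dioxygenase of purine breakdown, had 697 TPM in the triple-labelled library, against 3577 TPM in the double-labelled and 4253 TPM in the WT-labelled library (5.13-fold lower, 5.07 to 5.19). *idn1*, a gluconokinase that feeds gluconate into metabolism, had 467 TPM in the triple-labelled, 2263 TPM in the double-labelled and 328 TPM in the WT-labelled library (4.84-fold lower, 4.75 to 4.94). *cbm1*, annotated with a cellulose-binding domain, had 116 TPM in the triple-labelled library, against 584 TPM in the double-labelled and 3023 TPM in the WT-labelled library (5.04-fold lower, 4.84 to 5.25). The WT-labelled library was higher than both mutant libraries for *cbm1* and lower than both for *rgs1* and *idn1*. Further genes of the lowest 15 are annotated as transporters: SPAC323.07c of the MatE family was 7.74-fold lower (7.58 to 7.91), SPAC1399.01c was 7.78-fold lower (7.55 to 8.01), and the dipeptide transporter gene SPCC757.13 was 5.97-fold lower (5.82 to 6.13). The oxoprolinase gene SPAC11D3.14c (7.03-fold lower, 6.79 to 7.27), the NADPH dehydrogenase gene SPAC5H10.10 (6.45-fold lower, 6.09 to 6.83) and the uncharacterized SPAC11D3.03c (4.89-fold lower, 4.78 to 5.001) complete the list.

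The highest ratio was that of *cmt2*, a catechol O-methyltransferase gene, with 576 TPM in the triple-labelled, 18.8 TPM in the double-labelled and 16.4 TPM in the WT-labelled library (30.6-fold higher, 28.2 to 33.2). SPAC4H3.08, annotated as 3-hydroxyacyl-CoA dehydrogenase, had 437 TPM in the triple-labelled library, against 18.1 TPM in the double-labelled and 19.4 TPM in the WT-labelled library (24.2-fold higher, 22.3 to 26.2). SPAPB1A11.03, annotated as an L-lactate dehydrogenase, had 333 TPM in the triple-labelled, 16.0 TPM in the double-labelled and 7.05 TPM in the WT-labelled library (20.8-fold higher, 19.4 to 22.4). The triple-labelled library was high for all of these, and the double-labelled and WT-labelled libraries were low. *osr1* and SPCC663.08c, dehydrogenase genes a short distance apart on chromosome III, were 13.9-fold higher (12.9 to 15.1) and 6.99-fold higher (6.50 to 7.52). They share 11.8% of their 50-base stretches with other places in the genome, so some of their reads may be split between near copies. *atf21*, a transcription factor of the Atf-CREB family, had 348 TPM in the triple-labelled library, against 35.6 TPM in the double-labelled and 13.4 TPM in the WT-labelled library (9.78-fold higher, 9.27 to 10.3).

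*srx1* encodes sulfiredoxin, which repairs oxidized peroxiredoxin, and had 599 TPM in the triple-labelled, 69.5 TPM in the double-labelled and 69.1 TPM in the WT-labelled library (8.61-fold higher, 8.07 to 9.20). *obr1*, an NAD(P)H-quinone reductase gene, had 3299.7 TPM in the triple-labelled library, against 585 TPM in the double-labelled and 1891 TPM in the WT-labelled library (5.64-fold higher, 5.54 to 5.74), so that its double-labelled value was the lowest of the 3. *erg31*, a sterol desaturase gene, was 7.86-fold higher (7.58 to 8.16), and *hem13*, which encodes coproporphyrinogen oxidase of heme synthesis, was 5.36-fold higher (5.22 to 5.52). The sulfate transporter genes *sul2* and *sul1* were 7.11-fold and 6.53-fold higher, and *met17*, the homocysteine synthase gene, was 5.90-fold higher (5.70 to 6.11). *ght2*, a glucose transporter gene, was 5.26-fold higher (5.14 to 5.38). SPCC18B5.02c, which the reference lists without a product, was 5.30-fold higher (4.96 to 5.67).

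**Figure D2:**
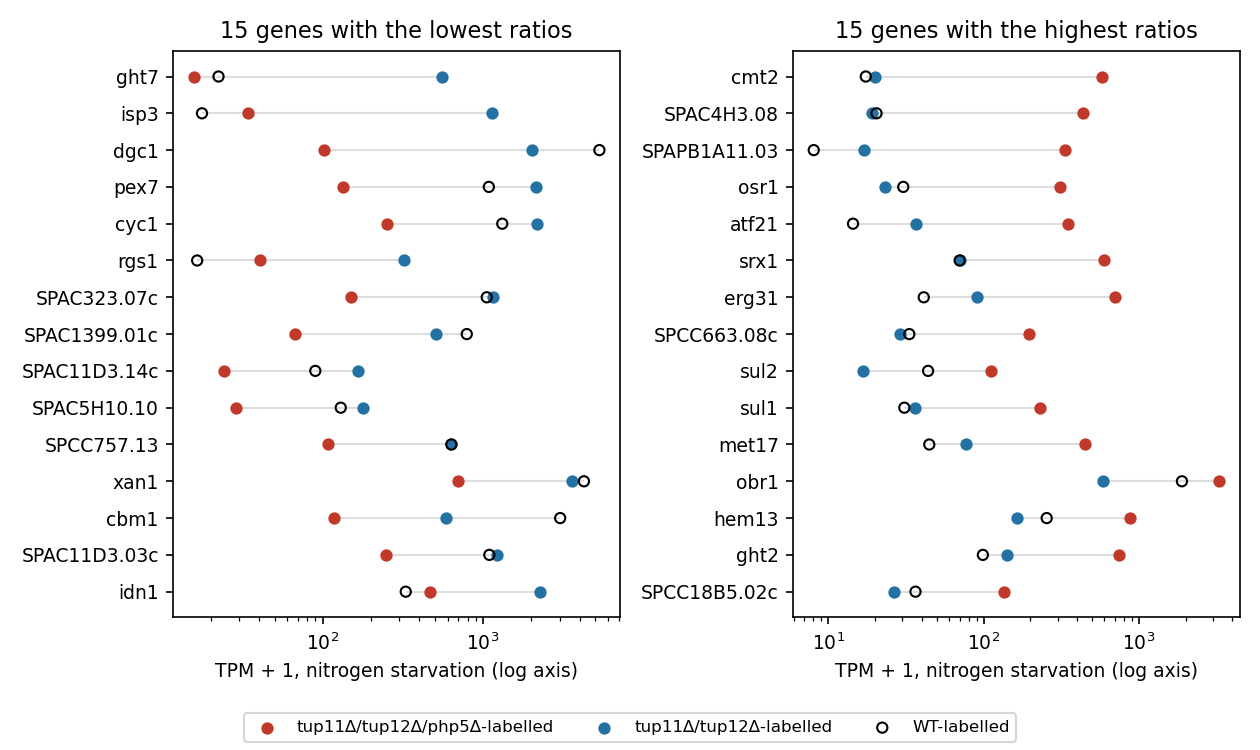
TPM + 1 (log axis) under nitrogen starvation of the 15 genes with the lowest (left) and the 15 with the highest ratios (right) outside the 17, among genes with at least 100 TPM in one of both mutant libraries. Red points are the triple-labelled, blue points the double-labelled and open circles the WT-labelled library, 1 library each. On the left the WT-labelled circle lies near the red point for *ght7* and *isp3* and far right of it for *dgc1* and *cbm1*, while on the right it lies near the blue point for most genes.

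The libraries were not strand-specific, and overlapping transcripts cannot be separated in them. Of these 30 genes, 25 have coding bases that lie within another annotated transcript of the reference, noncoding transcripts included, and 13 are covered over their whole coding length. *cyc1*, *xan1*, *met17*, *hem13* and *erg31* have no such overlap.

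Genes of mitochondrial respiration were lower as a group. Of all 4810 features 2953 had ratios under 1. All 20 measured nuclear genes of the respiratory chain had ratios under 1, 12 of them (60% against 3.22% of all features) under 0.5, with a median log2 ratio of -1.06. After *cyc1* the lowest was *ndi1*, one of the 17 genes, followed by *rip1*, the Rieske iron-sulfur protein of the cytochrome bc1 complex, with 327 TPM in the triple-labelled, 811 TPM in the double-labelled and 617 TPM in the WT-labelled library (2.48-fold lower, 2.42 to 2.54). *cyt1*, which encodes cytochrome c1 of the same complex, had 354 TPM in the triple-labelled library, against 862 TPM in the double-labelled and 662 TPM in the WT-labelled library (2.43-fold lower, 2.38 to 2.48). *cox9*, a subunit of cytochrome c oxidase, had 556 TPM in the triple-labelled, 1325 TPM in the double-labelled and 1405 TPM in the WT-labelled library (2.38-fold lower, 2.30 to 2.47). The remaining genes under 0.5 were *cox5*, *cox6*, *cox8*, *cox12*, *qcr2*, *qcr10* and *nde1*, between 2.02-fold and 2.32-fold lower. The smallest difference in the group was that of *qcr8*, with 1351 TPM in the triple-labelled and 1868 TPM in the double-labelled library. For the whole list the summed expression was 8983 TPM in the triple-labelled, 19247 TPM in the double-labelled and 15433 TPM in the WT-labelled library.

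The ATP synthase followed with smaller differences: all 14 measured genes had ratios under 1, and 1 of them was under 0.5 (7.14% against 3.22% of all features). This was *atp18*, with 321 TPM in the triple-labelled and 737 TPM in the double-labelled library (2.29-fold lower, 2.19 to 2.41). The median log2 ratio of the list was -0.76. *atp2*, which encodes the catalytic beta subunit had 932 TPM in the triple-labelled library, against 1769 TPM in the double-labelled and 1542 TPM in the WT-labelled library (1.90-fold lower, 1.88 to 1.92).

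In the citric acid cycle 7 of 14 measured genes (50% against 3.22% of all features) were under 0.5, with *kgd1* of the 17 genes among them. *cit1*, the citrate synthase gene at the entry of the cycle, had 492 TPM in the triple-labelled, 1951 TPM in the double-labelled and 717 TPM in the WT-labelled library (3.96-fold lower, 3.91 to 4.02). *kgd2*, a subunit of the 2-oxoglutarate dehydrogenase complex, had 194 TPM in the triple-labelled library, against 564 TPM in the double-labelled and 282 TPM in the WT-labelled library (2.91-fold lower, 2.85 to 2.97). Both subunits of the NAD-dependent isocitrate dehydrogenase had like ratios: *idh1* had 395 TPM in the triple-labelled, 912 TPM in the double-labelled and 476 TPM in the WT-labelled library, and *idh2* had 370.1 TPM in the triple-labelled library, against 861 TPM in the double-labelled and 429.9 TPM in the WT-labelled library. *mdh1*, the mitochondrial malate dehydrogenase gene, had 1268 TPM in the triple-labelled, 2568 TPM in the double-labelled and 614 TPM in the WT-labelled library and was 2.03-fold lower (2.00 to 2.05). *sdh1* was 2.05-fold lower (2.02 to 2.07), whereas the succinate dehydrogenase genes *sdh2* and *sdh3* were 1.43-fold and 1.26-fold lower and aconitase *aco1* 1.2503-fold lower, inside the 2-fold limit.

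Genes that build these complexes were mixed. Of 15 measured genes for heme attachment and cytochrome oxidase assembly, a list put together after values had been seen, 3 were under 0.5 (against 3.22% of all features). *cyc2*, the cytochrome c heme-linkage gene, had 16.8 TPM in the triple-labelled library, against 77.9 TPM in the double-labelled and 96.7 TPM in the WT-labelled library (4.62-fold lower, 4.22 to 5.07). *coa2*, an assembly factor of cytochrome c oxidase, had 33.8 TPM in the triple-labelled, 118 TPM in the double-labelled and 117 TPM in the WT-labelled library (3.49-fold lower, 3.11 to 3.93). *cox17*, which encodes a chaperone that brings copper to the same enzyme, had 82.6 TPM in the triple-labelled library, against 211 TPM in the double-labelled and 255.6 TPM in the WT-labelled library (2.55-fold lower, 2.34 to 2.78). For all of these the WT-labelled value was close to or above the double-labelled one. The heme lyase gene of cytochrome c1, *cyt2*, had 135 TPM in the triple-labelled and 151 TPM in the double-labelled library. Among 13 genes of iron-sulfur cluster assembly only the scaffold gene *isu1* was under 0.5 (7.69% against 3.22% of all features). It had 119.9 TPM in the triple-labelled, 304 TPM in the double-labelled and 401 TPM in the WT-labelled library (2.53-fold lower, 2.42 to 2.64). Of 50 mitochondrial ribosomal protein genes 1 was under 0.5, a share no larger than that of all features, and 44 were under 1, with a median log2 ratio of -0.30.

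**Figure D3:**
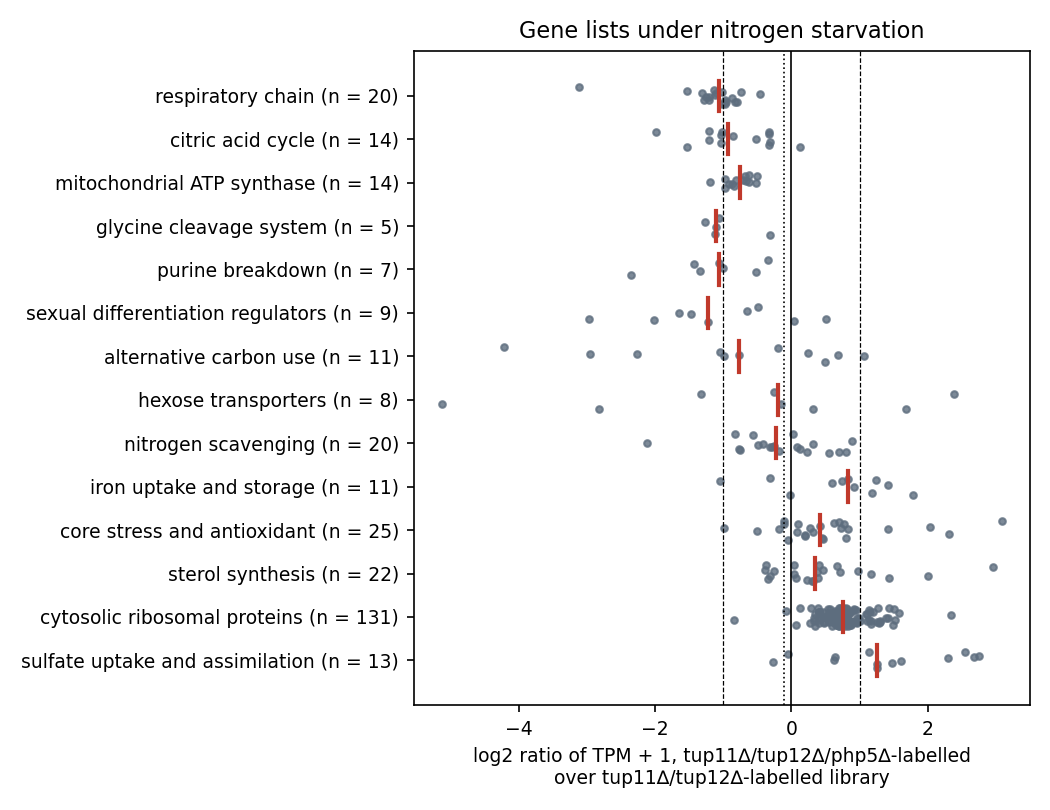
Log2 ratio of TPM + 1 between the triple-labelled and the double-labelled library under nitrogen starvation for the members of 14 gene lists that passed the filter (n in brackets). Each point is a gene, red bars are list medians, the dotted line is the median of all features (-0.11) and dashed lines mark 2-fold differences. The respiratory chain lies wholly left of 0 and the sulfate list reaches furthest right in its median (1.26).

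Where the lower genes carry a CCAAT box was read from the reference genome. A promoter window here is 300 bases on the strand of the gene, with 250 before and 50 after the annotated transcript start. The letters CCAAT, on either strand, were present in 54.2% of the windows of the 155 lower features (84 windows), in 39.7% of 141 higher features and in 42.1% of 4795 protein-coding features that passed the filter. In the 32 features that were lower past 2-fold in all 3 media, described further on, the share was 81.2% (26 windows), and in 45 features higher in all 3 media it was 46.7%. Of the respiratory chain genes 65% had the motif and of the citric acid cycle genes 71.4%. The share was 50% for the ATP synthase and 46.7% for the assembly genes. For the sulfate uptake and assimilation genes, described further on and mostly higher, it was 69.2%. The motif was thus not particular to the lists that were lower. Stretches of 41 bases from 7 genes that were lower in all 3 media, chosen after their values were seen, are given to show the letters around the motif, from the ASM294v3 assembly, 5′ to 3′ on the strand of the gene, with CCAAT or its reverse complement ATTGG in capitals.
cyc1: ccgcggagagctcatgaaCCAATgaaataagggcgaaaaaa
pex7: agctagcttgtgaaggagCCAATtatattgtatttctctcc
isp3: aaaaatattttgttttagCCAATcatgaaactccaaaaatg
ght7: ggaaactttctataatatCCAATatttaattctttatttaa
cyc2: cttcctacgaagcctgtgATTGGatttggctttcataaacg
coa2: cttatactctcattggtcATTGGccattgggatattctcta
isu1: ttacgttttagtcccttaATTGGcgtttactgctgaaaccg
In the order given, the stretches lie at chrIII:1714539-1714579 (+), chrI:4722645-4722685 (+), chrI:95641-95681 (+), chrII:40259-40299 (-), chrI:2027026-2027066 (-), chrI:3687884-3687924 (+) and chrI:519155-519195 (-). The first base of the motif lies at -65 from the transcript start for *cyc1*, -121 for *pex7*, -131 for *isp3*, -138 for *ght7*, -47 for *cyc2*, -143 for *coa2* and -226 for *isu1*. The windows of *cyc1*, *pex7* and *coa2* hold 3 copies each, and in *coa2* they follow each other within the stretch shown. *rip1* and *xan1* have none in the window. A match of letters is not a binding site, and whether the complex binds there was not measured.

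Another motif was more frequent in the lower group. CCCCTC or CCCCGC, the letters of the stress response element, was present on either strand in 17.4% of the windows of lower features (27 windows), against 4.26% of those of higher features and 3.17% of all. TGACGT, the core of the CRE motif bound by factors of the ATF/CREB type, was present in 5.16% of the lower, 9.93% of the higher and 5.92% of all windows. The lower features behind these shares, and behind that of CCAAT, include the 17 genes. Those were selected by this ratio and by induction under glucose starvation, and no share was taken without them. With a 3-fold limit, CCAAT was present in 56.6% of 53 lower and 63.4% of 41 higher features, so the difference between both directions depends on that limit.

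**Figure D4:**
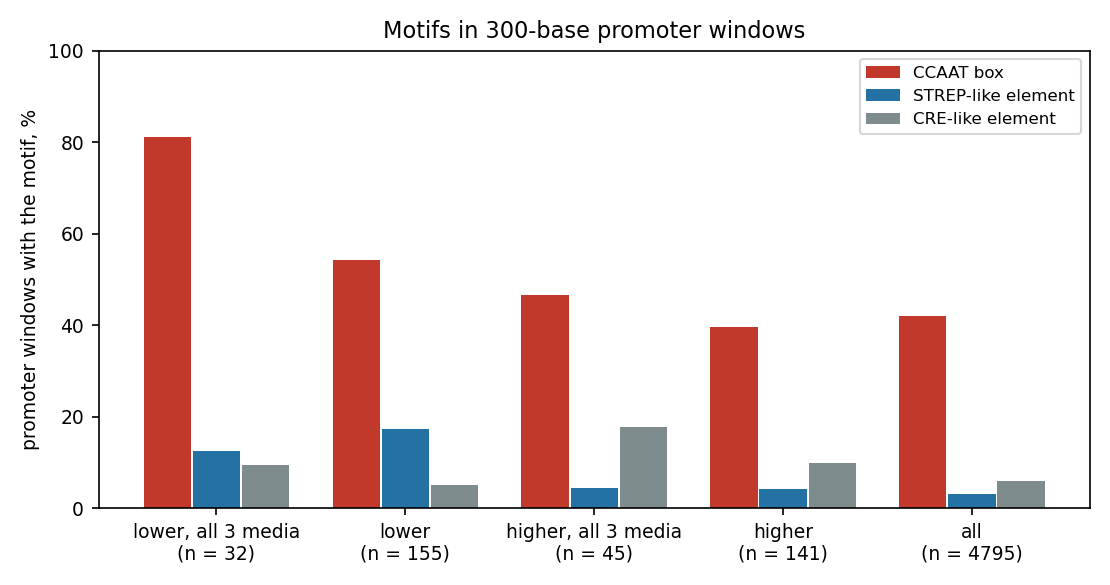
Share of promoter windows (vertical axis, percent, from 0) with a CCAAT box (red), a stress response element (blue, STREP-like) or a CRE core (grey), for features lower or higher past 2-fold under nitrogen starvation, for those past 2-fold in the same direction in all 3 media, and for all protein-coding features that passed the filter. The red bar is tallest, at 81.2%, for the features lower in all 3 media, and the blue bar at 17.4% for those lower under nitrogen starvation.

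Purine breakdown, through which starved cells recover nitrogen, was lower as well. This list was put together after values had been seen, and its count is a description. Of its 7 genes 5 were under 0.5 (against 3.22% of all features). Beside *xan1* these include *gud1*, the guanine deaminase gene, with 297 TPM in the triple-labelled library, against 799 TPM in the double-labelled and 1004 TPM in the WT-labelled library (2.69-fold lower, 2.65 to 2.73). *dea2*, the adenine deaminase gene, had 126 TPM in the triple-labelled, 253 TPM in the double-labelled and 562 TPM in the WT-labelled library. Further along the pathway *uro1*, the uricase gene, had 1073 TPM in the triple-labelled library, against 2729 TPM in the double-labelled and 5395 TPM in the WT-labelled library (2.54-fold lower, 2.51 to 2.57). *dal1*, annotated as ureidoglycolate hydrolase, had 75.4 TPM in the triple-labelled, 158 TPM in the double-labelled and 267 TPM in the WT-labelled library. The allantoicase gene *dal2* and the urease gene *ure2* lay inside 2-fold, with 502 TPM in the triple-labelled and 723 TPM in the double-labelled library for *dal2* and 86.1 TPM in the triple-labelled and 109 TPM in the double-labelled library for *ure2*. In every one of the 7 genes the triple-labelled library was the lowest, and in 6 of them the WT-labelled library was the highest, the exception being *ure2*. Summed, the list stood at 2857 TPM in the triple-labelled, 8349 TPM in the double-labelled and 13109.9 TPM in the WT-labelled library. The strain table holds strains with and without an *ade6* marker, a gene of purine synthesis, and supplements may differ between strains. For such genes a difference in marker or supplements cannot be told apart from the loss of *php5*.

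Other genes outside the lists, whose products are annotated to act on 5-oxoproline, amides or uracil, were chosen after their values were seen. The oxoprolinase gene SPAC11D3.14c had 23.4 TPM in the triple-labelled library, against 164 TPM in the double-labelled and 88.8 TPM in the WT-labelled library. Its neighbour SPAC11D3.15, annotated with the same activity, had 57.0 TPM in the triple-labelled, 213 TPM in the double-labelled and 103 TPM in the WT-labelled library. SPAC26A3.11, annotated as omega-amidase, had 126 TPM in the triple-labelled library, against 608 TPM in the double-labelled and 660.1 TPM in the WT-labelled library. *fur4*, the uracil permease gene, had 315 TPM in the triple-labelled, 949.7 TPM in the double-labelled and 1296 TPM in the WT-labelled library. The glycine cleavage system, which was likewise listed after values had been seen, had 4 of 5 genes under 0.5 (against 3.22% of all features). *gcv1* had 214 TPM in the triple-labelled and 515 TPM in the double-labelled library, *gcv2* had 89.9 TPM in the triple-labelled and 196 TPM in the double-labelled library, and *gcv3* had 332 TPM in the triple-labelled and 696 TPM in the double-labelled library. *lip5*, which encodes the lipoate synthase that supplies the cofactor of this system, had 71.2 TPM in the triple-labelled and 154 TPM in the double-labelled library. By contrast, the 20 measured genes of the general nitrogen scavenging list (ammonium and amino acid permeases, glutamine and glutamate synthesis, vacuolar transporters and the GATA factors) had a median log2 ratio of -0.22. Only 1 of them was past 2-fold, the amino acid permease gene *isp5*, which is one of the 17.

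Genes of sexual differentiation were lower in part. Of 9 regulators that passed the filter, out of 14 listed, 5 were under 0.5 (against 3.22% of all features). *ste11*, the transcription factor that starts the mating program, had 28.5 TPM in the triple-labelled library, against 92.1 TPM in the double-labelled and 31.5 TPM in the WT-labelled library (3.23-fold lower, 3.05 to 3.41). *gpa1*, the G-protein alpha subunit of pheromone signalling, had 246 TPM in the triple-labelled, 685 TPM in the double-labelled and 102 TPM in the WT-labelled library (2.78-fold lower, 2.73 to 2.84). *spk1*, the MAP kinase of that pathway, had 104 TPM in the triple-labelled library, against 423 TPM in the double-labelled and 74.4 TPM in the WT-labelled library (4.08-fold lower, 3.96 to 4.21). *mei2*, the RNA-binding protein that starts meiosis, had 76.8 TPM in the triple-labelled, 181 TPM in the double-labelled and 24.9 TPM in the WT-labelled library (2.36-fold lower, 2.29 to 2.42). For these genes and for *rgs1* the double-labelled value was the highest of the 3. The upstream kinase gene *byr1* had 192 TPM in the triple-labelled and 135 TPM in the double-labelled library, and *byr2* had 43.6 TPM in the triple-labelled and 42.4 TPM in the double-labelled library, so neither was lower. *map2*, which encodes the P-factor pheromone, had 30.4 TPM in the triple-labelled library, against 144 TPM in the double-labelled and 43.2 TPM in the WT-labelled library (4.72-fold lower, 4.37 to 5.11). The other P-cell and M-cell genes that passed, 2 and 6, lay inside 2-fold. Since the strain table holds both mating types, a difference in mating type between the sequenced strains cannot be told apart from the loss of *php5* for such genes.

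Carbon metabolism went both ways. Of 8 hexose transporter genes 3 were lower past 2-fold, *ght3*, *ght7* and *ght1*, and 2 were higher (against 3.22% and 2.95% of all features). The higher ones were *ght2*, with 741 TPM in the triple-labelled, 141 TPM in the double-labelled and 97.9 TPM in the WT-labelled library, and *ght6*, with 619 TPM in the triple-labelled library, against 193 TPM in the double-labelled and 17.3 TPM in the WT-labelled library (3.21-fold higher, 3.14 to 3.27). *ght6* was thus far above WT in both mutant libraries and highest in the triple-labelled one. *hxk1*, the hexokinase gene, was 2.46-fold lower (2.42 to 2.51), with 265 TPM in the triple-labelled, 652 TPM in the double-labelled and 335 TPM in the WT-labelled library. Of 11 genes for the use of other carbon sources 5 were lower and 1 higher (against 3.22% and 2.95% of all features). All 5 lower ones are among the 17 and so lower by construction. The higher one was *adh4*, an alcohol dehydrogenase gene. It had 172 TPM in the triple-labelled library, against 81.5 TPM in the double-labelled and 66.9 TPM in the WT-labelled library (2.11-fold higher, 2.03 to 2.19). Of 17 genes of glycolysis and fermentation the median log2 ratio was 0.21, 2 were lower and 1 was higher (against 3.22% and 2.95% of all features). The lower ones were *hxk1* and *pdc201*, a pyruvate decarboxylase gene of the 17, with 90.3 TPM in the triple-labelled, 231 TPM in the double-labelled and 10.8 TPM in the WT-labelled library. The higher one was *eno102*, an enolase gene, with 211 TPM in the triple-labelled library, against 99.5 TPM in the double-labelled and 81.1 TPM in the WT-labelled library. The glyoxylate reductase gene *gor1*, chosen after its values were seen, had 1205 TPM in the triple-labelled, 3764 TPM in the double-labelled and 1067 TPM in the WT-labelled library (3.12-fold lower, 3.09 to 3.16).

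Sulfate uptake and assimilation was the list with the highest median, at a log2 ratio of 1.26. It was also put together after values had been seen. Of 13 genes 9 were higher past 2-fold (against 2.95% of all features). The transporter gene *sul1* had 229 TPM in the triple-labelled library, against 35.001 TPM in the double-labelled and 29.9 TPM in the WT-labelled library. The other transporter gene, *sul2*, had 111 TPM in the triple-labelled, 15.6 TPM in the double-labelled and 42.9 TPM in the WT-labelled library. *sua1* encodes the sulfate adenylyltransferase that activates sulfate, and had 817 TPM in the triple-labelled library, against 268 TPM in the double-labelled and 176 TPM in the WT-labelled library (3.05-fold higher, 2.998 to 3.11). *met14* encodes the adenylyl-sulfate kinase of the next step, and had 242 TPM in the triple-labelled, 85.9 TPM in the double-labelled and 233 TPM in the WT-labelled library (2.81-fold higher, 2.68 to 2.96). *sir1*, a subunit of sulfite reductase, had 77.5 TPM in the triple-labelled library, against 31.9 TPM in the double-labelled and 40.7 TPM in the WT-labelled library (2.43-fold higher, 2.36 to 2.51). Among the genes that build sulfide into amino acids, *met17* had 448 TPM in the triple-labelled, 75.8 TPM in the double-labelled and 43.7 TPM in the WT-labelled library. The cysteine synthase gene *cys11* had 252 TPM in the triple-labelled library, against 114 TPM in the double-labelled and 286 TPM in the WT-labelled library. *cys2*, a homoserine O-acetyltransferase gene, had 149 TPM in the triple-labelled, 29.6 TPM in the double-labelled and 39.2 TPM in the WT-labelled library (5.03-fold higher, 4.78 to 5.30). For *met14* and *cys11* the WT-labelled library was close to or above the triple-labelled one, while *sul1*, *met17* and *sua1* were highest in the triple-labelled library. *met16*, *met10*, *cys12* and *met8* lay inside 2-fold. In the list of amino acid synthesis genes, which shares members with this one, 6 of 60 were higher (10% against 2.95% of all features). Only 1 was lower, a share (1.67%) no larger than that of all features (3.22%). Outside sulfur assimilation the higher one was *ser3*, of serine synthesis, with 421 TPM in the triple-labelled library, against 157 TPM in the double-labelled and 106 TPM in the WT-labelled library (2.68-fold higher, 2.62 to 2.75). The lower one was *arg7*, the argininosuccinate lyase gene, with 48.9 TPM in the triple-labelled, 101 TPM in the double-labelled and 131 TPM in the WT-labelled library (2.07-fold lower, 1.97 to 2.16).

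Stress and antioxidant genes were higher in part. Of 25 measured genes 4 (16% against 2.95% of all features) were higher past 2-fold and none was lower. Beside *srx1* these include *ctt1*, the catalase gene, with 2167 TPM in the triple-labelled library, against 434 TPM in the double-labelled and 239 TPM in the WT-labelled library (4.99-fold higher, 4.93 to 5.06). *gst2*, a glutathione S-transferase gene, had 3341 TPM in the triple-labelled, 815 TPM in the double-labelled and 727 TPM in the WT-labelled library (4.10-fold higher, 4.04 to 4.16). *hsp16*, a small heat shock protein gene, had 14973 TPM in the triple-labelled library, against 5579 TPM in the double-labelled and 68.3 TPM in the WT-labelled library (2.68-fold higher, 2.66 to 2.70). *hsp16* and *ctt1* were above WT in both mutant libraries, and *hsp16* stood out by its level. The 13 other chaperone genes measured were inside 2-fold, with a median log2 ratio of -0.35.

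Iron and oxygen-dependent pathways contained further high genes. Of 11 iron uptake and storage genes that passed, 4 were higher (against 2.95% of all features). *shu1*, for heme uptake, had 2007 TPM in the triple-labelled, 749.9 TPM in the double-labelled and 7.18 TPM in the WT-labelled library (2.68-fold higher, 2.63 to 2.72). *str1*, a siderophore transporter gene, had 266 TPM in the triple-labelled library, against 76.2 TPM in the double-labelled and 41.1 TPM in the WT-labelled library (3.49-fold higher, 3.38 to 3.59). *frp1*, the ferric reductase gene, had 456 TPM in the triple-labelled, 192 TPM in the double-labelled and 29.1 TPM in the WT-labelled library (2.38-fold higher, 2.33 to 2.43). *sib2*, of siderophore synthesis, had 641 TPM in the triple-labelled library, against 282 TPM in the double-labelled and 68.9 TPM in the WT-labelled library (2.27-fold higher, 2.23 to 2.32). All of these were lowest in the WT-labelled library. The exception in direction was *pcl1*, a transporter of iron into the vacuole, with 125 TPM in the triple-labelled, 260.1 TPM in the double-labelled and 227 TPM in the WT-labelled library (2.08-fold lower, 2.00 to 2.16). *hem13* had 875 TPM in the triple-labelled library, against 163 TPM in the double-labelled and 254 TPM in the WT-labelled library. Of 22 sterol synthesis genes 4 were higher (against 2.95% of all features). *erg1*, the squalene epoxidase gene, had 1427 TPM in the triple-labelled, 355 TPM in the double-labelled and 146 TPM in the WT-labelled library (4.02-fold higher, 3.95 to 4.08). *erg25*, a methylsterol oxidase gene, had 1184 TPM in the triple-labelled library, against 437 TPM in the double-labelled and 645 TPM in the WT-labelled library (2.71-fold higher, 2.66 to 2.76). *erg11*, the lanosterol demethylase gene, had 400.4 TPM in the triple-labelled, 178 TPM in the double-labelled and 279 TPM in the WT-labelled library (2.25-fold higher, 2.20 to 2.30). *erg31* had 701 TPM in the triple-labelled library, against 89.1 TPM in the double-labelled and 40.2 TPM in the WT-labelled library. These enzymes and that of *hem13* use oxygen, and the median log2 ratio of the whole sterol list was 0.34.

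Cytosolic ribosomal protein genes differed little singly but nearly all in one direction: 129 of 131 had ratios over 1, 24 (18.3%) over 2 and none under 0.5, with a median log2 ratio of 0.76. Of all 4810 features 1857 were over 1 and 2.95% over 2. Summed, they made up 115367 TPM in the triple-labelled library, 71626 TPM in the double-labelled library and 118654 TPM in the WT-labelled library. Because TPM values of every library share 1 fixed sum, such a difference in abundant genes shifts all others in the opposite direction. *rpl3002* had the largest difference, with 48.4 TPM in the triple-labelled, 8.71 TPM in the double-labelled and 61.3 TPM in the WT-labelled library (5.55-fold higher, 4.57 to 6.79). *rpl3401*, an abundant member, had 1804 TPM in the triple-labelled library, against 821 TPM in the double-labelled and 1667 TPM in the WT-labelled library (2.20-fold higher, 2.15 to 2.25), and *rpl1502* had 524 TPM in the triple-labelled, 186 TPM in the double-labelled and 470.4 TPM in the WT-labelled library (2.82-fold higher, 2.72 to 2.92). In these the triple-labelled library lay near the WT-labelled one. The exceptions under 1 were *rps1401*, with 256.3 TPM in the triple-labelled and 461 TPM in the double-labelled library, and *rpl35A02*. Many of these genes have near-identical copies: 12 of the 131 share over 10% of their 50-base stretches with another place, among them 3 of the 24 (*rps1402*, *rpl1202* and *rpl3702*), and their values are uncertain. Ribosome biogenesis genes had a median log2 ratio of 0.32, with 0 of 52 past 2-fold.

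No member was past 2-fold among 10 histone genes, 16 genes of purine and pyrimidine synthesis, 27 autophagy genes and 7 copper and zinc genes. All 19 proteasome regulatory particle genes had ratios under 1, with a median log2 ratio of -0.33 and none past 2-fold; with median-of-ratios scaling that median is -0.19. The few lower genes of the lists that follow are to be read against the 3.22% of all features that were lower. Among 17 glucose signalling genes 1 was lower, *gpa2*, with 103 TPM in the triple-labelled and 229.5 TPM in the double-labelled library. Of 7 flocculin genes that passed, *pfl7* and *pfl8* were lower, with 8.98 TPM in the triple-labelled and 27.9 TPM in the double-labelled library for *pfl7* and 39.3 TPM in the triple-labelled and 80.9 TPM in the double-labelled library for *pfl8*. Of 9 phosphate and thiamine genes *tgp1*, a glycerophosphodiester transporter gene, was lower with 44.8 TPM in the triple-labelled library, against 179.7 TPM in the double-labelled and 63.0 TPM in the WT-labelled library (4.01-fold lower, 3.85 to 4.17).

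The same strains in the other media share no library with this comparison. Under glucose starvation 34% of the 4810 features were under 0.5 and 5.11% over 2, with a median log2 ratio of -0.62, and in glucose rich medium 1.43% were under 0.5 and 4.24% over 2, with a median of 0.12. Centred on the median log2 ratio of each medium, 682 features were lower and 586 higher past 2-fold under glucose starvation, 83 lower and 151 higher in glucose rich medium, and 117 lower and 182 higher under nitrogen starvation. Of the 155 features lower under nitrogen starvation, 122 (78.7%) were also lower under glucose starvation, where they made up 7.47% of the lower features, and 36 (23.2%) were also lower in glucose rich medium, where they made up 52.2%. With that centring 71 of the 117 (60.7%) were also lower under glucose starvation. Of the 142 higher features, 61 (43%) were also higher under glucose starvation (24.8% of those higher there) and 73 (51.4%) in glucose rich medium (35.8% of those higher there). In all 3 media 32 features were lower (20.6%) and 46 higher (32.4%). Across features, which are not independent replicates and share the reads of a library, the log2 ratios under nitrogen starvation had Pearson's r of 0.48 with those under glucose starvation and of 0.43 with those in glucose rich medium, and Spearman's rho was 0.46 and 0.17 (n = 4810).

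The genes that were lower in every medium include *cyc1*, whose values were 394 and 1812 TPM under glucose starvation and 46.1 and 848 TPM in glucose rich medium, in the triple-labelled and the double-labelled library of each. *pex7* had 95.8 and 1687 TPM under glucose starvation and 162 and 1325 TPM in glucose rich medium. *cit1*, *rip1*, *isu1*, *coa2* and *cyc2* were also under 0.5 in all 3. The list median of the respiratory chain was -1.87 under glucose starvation and -0.80 in glucose rich medium, and all 20 genes were under 1 in each. Of all 4810 features, 3709 were under 1 under glucose starvation and 1642 in glucose rich medium. Genes that were higher in every medium include *cmt2*, with 376 and 13.2 TPM under glucose starvation and 342 and 1.21 TPM in glucose rich medium, and *ctt1*, with 4000 and 448 TPM and with 926 and 117 TPM. *sul1* and *sul2*, *srx1*, *atf21*, *ght2*, *ght6* and *php4* were likewise over 2 in all 3.

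Other groups took a different course by medium. Purine breakdown had a median log2 ratio of 0.14 in glucose rich medium, where *xan1* had 15.6 and 16.7 TPM in the triple-labelled and double-labelled library, so that both were low there, unlike under nitrogen starvation. *dgc1* had 35.6 and 25.9 TPM in glucose rich medium. The regulators of sexual differentiation had a median of -1.02 under glucose starvation and 0.09 in glucose rich medium. Ribosomal protein genes had a median of 0.14 under glucose starvation, where that of all features was -0.62. They thus lay above all features there, as under nitrogen starvation (0.76 against -0.11). In glucose rich medium their median was -0.26, against 0.12 for all features. There 128 of the 131 had ratios under 1, against 1642 of all 4810 features. *hem13* had 92.8 and 164 TPM under glucose starvation against 1280.4 and 167 TPM in glucose rich medium, again with the triple-labelled value first in each pair. These differences between media were not tested.

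**Figure D5:**
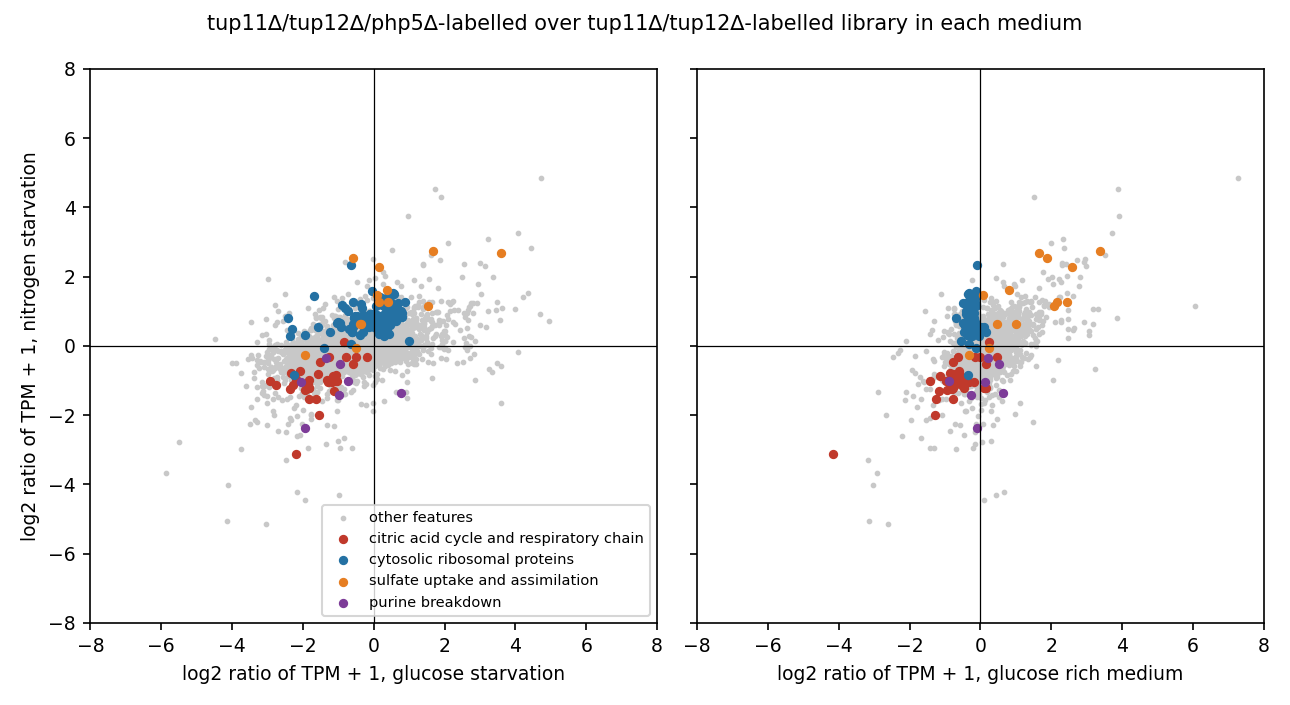
Log2 ratio of TPM + 1 between the triple-labelled and the double-labelled library under nitrogen starvation (vertical axes) against glucose starvation (left) and glucose rich medium (right) for 4810 features. Nearly all respiratory and citric acid cycle genes (red) lie at negative values under both starvations, ribosomal protein genes (blue) lie above 0 on the vertical axis except for *rps1401* and *rpl35A02* and mostly under 0 on the right-hand horizontal axis, and sulfate genes (orange) lie mostly above 0 in glucose rich medium.

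The lower and higher features were also set against their place on the chromosomes. Within 100 kb of the ends of chromosomes I and II lay 8.39% of the lower features (13), 6.38% of the higher features (9) and 1.11% of all protein-coding features that passed. The lower ones there include members of the 17 genes, such as *dak2* and SPAC977.17, and no share was taken without them. Runs of at least 3 neighbouring measured features past 2-fold in one direction were found in 2 places of the ASM294v3 assembly, both of lower features. The first, at chrI:64904-75910, holds *dak2* and SPAC977.17 of the 17 genes and SPAPJ695.02. The second, at chrIII:1712319-1715064, holds SPCC191.05c, SPCC191.06 and *cyc1*. SPCC191.05c, annotated as a nucleoside deoxyribosyltransferase, had 26.4 TPM in the triple-labelled, 55.5 TPM in the double-labelled and 207 TPM in the WT-labelled library. The uncharacterized SPCC191.06 had 34.7 TPM in the triple-labelled library, against 70.2 TPM in the double-labelled and 122 TPM in the WT-labelled library. A further region on chromosome I, between the coding sequences of SPAC11D3.19 and SPAC11D3.18c (chrI:106965-146358), holds 18 measured genes. Of these 5 were lower past 2-fold and 2 higher (against 3.22% and 2.95% of all features). Both genes at the ends of the region belong to the 17 and are among the lower ones by construction. The higher ones stand between the lower ones: SPAC11D3.01c, of the Con-6 family, had 2486 TPM in the triple-labelled, 657 TPM in the double-labelled and 79.1 TPM in the WT-labelled library, and *hsp3104*, a glyoxalase gene, had 52.8 TPM in the triple-labelled and 19.4 TPM in the double-labelled library. The region was chosen after its values were seen.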

How the data were processed

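RNA was taken from 3 strains in 3 media after 2 h, with 1 library per condition, by poly(A)-selected sequencing that was not strand-specific. Per the methods of the study, the authors mapped reads with HISAT2 and counted them with featureCounts, and the submitters' processing notes also name fastp and SAMtools without giving their role. The deposited values are TPM per coding feature of a PomBase annotation (ASM294v2.30), which have the same sum in each library. The length column of the deposited table, a pooled value of no sample, served to recover whole reads, and all values came out whole within 0.01. No column of per-sample values was left unused (0).

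The ratio of TPM between both nitrogen-starved mutant libraries was computed for 5323 features, of which 4810 with a mean of at least 10 TPM over the 9 libraries were counted as lower (ratio under 0.5) or higher (over 2). Log2 ratios use TPM + 1. Intervals are exact Clopper-Pearson 95% intervals on the reads and cover counting error only, since reads are not independent molecules. No test was possible with 1 library a side. Library depth ran from 36652045 to 54303622 reads, and the fewest reads behind a called feature in its higher library were 26. Named genes are the 15 lowest and 15 highest ratios outside the 17 among genes with at least 100 TPM in one of both libraries. The lists of purine breakdown, sulfate, glycine cleavage and cytochrome assembly genes were put together after values had been seen, and all members and gene lists were chosen with earlier results of these data known. From the lists, 10 symbols were left out because the reference gives them another role. Symbols (4274), promoter windows and coordinates come from RefSeq (ASM294v3), where all 5113 coding genes have the coding ends of the deposited table. Alternatives were other folds, filters, pseudocounts (0.1 and 10), scalings and promoter windows. Intervals came from scipy 1.17.1, tables from pandas 2.3.3 with numpy 2.4.6 and plots from matplotlib 3.10.9, under Python 3.11.15, and the scripts were tested on simulated data. An item withheld for evaluation is not reported here.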

Additional observations from a re-analysis of the deposited data

Results flagged for a closer look

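A few members of the lists were past 2-fold in opposite directions in different media. The libraries behind these ratios are separate, but with 1 library per condition the difference between media was not tested. All ratios are of TPM in the *tup11∆/tup12∆/php5∆* library over TPM in the *tup11∆/tup12∆* library. Under glucose starvation 34% of all features had ratios under 0.5, with a median log2 ratio of -0.62. Ratios in that medium are to be read against that shift. With each medium centred on its own median, 8 higher features were lower under glucose starvation, against 12 as deposited. In the other direction 6 lower features were higher there, against 2 as deposited. *shu1*, the heme uptake gene, had a ratio of 2.68 under nitrogen starvation and 0.456 under glucose starvation. *adh4* had 2.11 under nitrogen starvation and 0.484 under glucose starvation. The ribosomal protein gene *rps2601* had 2.72 under nitrogen starvation and 0.307 under glucose starvation. *mal1*, the alpha-glucosidase gene among the 17, was at 0.499 under nitrogen starvation, at the edge of the 2-fold limit, and at 7.37 under glucose starvation. The glycerophosphodiester transporter gene *tgp1* had 0.249 under nitrogen starvation and 2.17 in glucose rich medium. *map2*, which encodes P-factor, had 0.212 under nitrogen starvation and 2.97 in glucose rich medium. In all, 20 pairs of a feature and a medium were past 2-fold in opposite directions, 14 of them with glucose starvation and 6 with glucose rich medium.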

How the results depend on the processing

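The counts depend on the limits used. With a fold of 1.5, 476 features were lower and 453 higher, with a fold of 3, 53 were lower and 42 higher, and with a mean of at least 100 TPM, 96 were lower and 89 higher. Without a filter on low values 265 were higher. The split of lower and higher features (155 and 142) was 114 and 203 with median-of-ratios size factors, 121 and 192 with upper-quartile scaling and 145 and 148 without the 10 most abundant features. With promoter windows that begin 500 bases before the start, an alternative chosen after seeing the data, CCAAT was present in 71.6% of the lower and 60.3% of the higher features, and in 63.6% of all that passed the filter. With a fold of 3 it was present in 63.4% of the higher features, and CCCCTC or CCCCGC in 0 of them. With each medium centred on its own median, also chosen after seeing the data, 60.7% of the lower features were lower under glucose starvation too, 62.6% of the higher ones were higher under glucose starvation and 40.1% in glucose rich medium. None of 150 values of the 30 named genes, under 5 settings each, changed direction, and 74 moved by more than their counting interval. The medians of 33 lists moved by less than 0.25 on the log2 scale under the same settings, and medians near 0 can change sign within that, as that of the histone genes did (-0.08 as deposited and 0.06 with median-of-ratios size factors). No paired analysis was possible because the nitrogen-starved condition has 1 library per strain, and pairs across media would test another contrast. For the same reason no library could be left out. The depth of these libraries limits low genes only, and what it cannot give is the spread between cultures, so strain background, culture and the loss of *php5* cannot be told apart in any value reported here.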
